A study of Mus musculus with 10 samples.

Results

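NRF2, encoded by Nfe2l2, its cytoplasmic sensor KEAP1 and 8 of the best known NRF2 targets were followed in mouse kidney RNA. The 10 genes, of 27876 gene symbols measured, were picked by name, and the transcript with the highest mean level stood for each gene. They had 29 of the 85107 transcript rows. The samples were whole kidneys of wild-type mice collected on day 14. In one group 5 mice drank quinolinic acid, a tryptophan breakdown product of the kynurenine pathway, at 0.5 g/L for 14 days, and 5 mice received vehicle. The submitters described these mice as representative of their groups, and the labels give neither age nor a kidney injury procedure for them. The comparison addresses which kidney RNAs differ between exposed and unexposed mice.

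NRF2 is a transcription factor held at low levels because KEAP1 presents it to a CUL3 ubiquitin ligase for destruction. Oxidants and electrophiles modify cysteines of KEAP1, NRF2 then escapes destruction, pairs with a small MAF protein and binds antioxidant response elements near genes of glutathione, thioredoxin, quinone and heme metabolism. In kidney the pathway is known mainly from tubule cells under oxidative, ischemic or toxic stress. Much of its control acts on the protein, so that target RNAs are the usual readout of its activity.

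The core of the antioxidant response element, TGACNNNGC, was searched in the members' promoters, on both strands from 250 bases before to 50 bases after each RefSeq start site (build GRCm38.p6, the assembly of mm10). Promoters of 7 members were matched by symbol, and Hmox1, Gclc and Gsr had no entry. A match was found for 4 of these 7 genes, which are shown with 10 bases on either side, on the strand that carries the motif, with the match in capitals.
Nfe2l2, chr2:75704885-75704913, minus strand: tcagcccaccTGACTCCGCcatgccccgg
Srxn1, chr2:152105542-152105570, minus strand: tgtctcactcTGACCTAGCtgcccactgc
Gclm, chr3:122245413-122245441, minus strand: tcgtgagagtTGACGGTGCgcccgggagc
Txnrd1, chr10:82859104-82859132, minus strand: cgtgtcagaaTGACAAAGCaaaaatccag
The centre of the match lay 236 bases before the start site of Nfe2l2, 130 before that of Gclm and 88 before the second of 3 listed start sites of Txnrd1. In Srxn1 it lay 32 bases after the start. None of the 4 matches contained the AP-1 motif TGACTCA or TGAGTCA, which can overlap such elements. The same search matched 12.4% of all 32851 promoters, and at least 1 promoter of 14.0% of 27025 genes. Among the further NRF2 pathway genes described below it matched 15 of 62 genes (24.2%). A match is a stretch of letters, not a measured binding site, and elements farther away, or in the promoters of Nqo1, Keap1 and Slc7a11 with other letters, are outside this search.

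All members except Slc7a11 were measured at 10 CPM or more in these kidneys. The values were taken from the authors' deposited table, which gives for each transcript a log2 fold change, a mean level in CPM (read counts scaled to library size, on a log2 scale), a likelihood ratio, a p-value and an adjusted p. Values of single libraries and library depths were not analysed here, so no spread between mice can be shown. Errors are approximate 95% intervals, derived from each row's fold change and likelihood ratio. The header does not name the numerator of the fold change. A positive or negative sign is therefore given as deposited, and the group with more RNA is not named in the sources used here.

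Per kilobase of transcript, the mean level was highest for the subunits of the enzyme that starts glutathione synthesis. The authors' deposited table and the annotated lengths gave 37.3 CPM per kb for Gclc and 26.9 for Gclm. Glutathione reductase Gsr stood at 25.7, the quinone reductase Nqo1 at 21.8, Nfe2l2 at 21.4 and thioredoxin reductase Txnrd1 at 20.5 CPM per kb per the authors' deposited table. Sulfiredoxin Srxn1 at 11.5, heme oxygenase Hmox1 at 10.9 and Keap1 at 6.93 CPM per kb followed per the authors' deposited table. Slc7a11, the cystine-importing subunit of the cystine-glutamate exchanger, was lowest at 0.0753 CPM per kb and was the only member under 1 CPM (0.694 CPM) per the authors' deposited table. Neighbours in this order cannot be separated, since no spread over the libraries is at hand.

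No member passed the authors' test between vehicle and quinolinic acid. With edgeR's likelihood-ratio test and an adjusted p under 0.05, the authors' deposited table called 0 of the 10 genes and 0 of their 29 rows, against 0.0141% of all transcripts and 0.0215% of genes with 1 row each. With no adjustment, p was under 0.05 for 0 of the 10 members per the authors' deposited table, against 5.12% of all genes and 4.09% of genes of at least 1 CPM. Signs were positive for 7 members and negative for 3, and relative to the median of genes of at least 1 CPM 3 of the positive ones (Keap1, Gclm and Txnrd1) were negative. Their median log2 fold change was 0.05, beside 0.05 over all genes and 0.08 over the 13115 genes of at least 1 CPM, of which 71.8% had a positive sign. For 8 of 10 members the whole interval lay within 1.5-fold of no difference (0.58 on the log2 scale), which held for 84.7% of genes of at least 1 CPM.

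**Figure D1:**
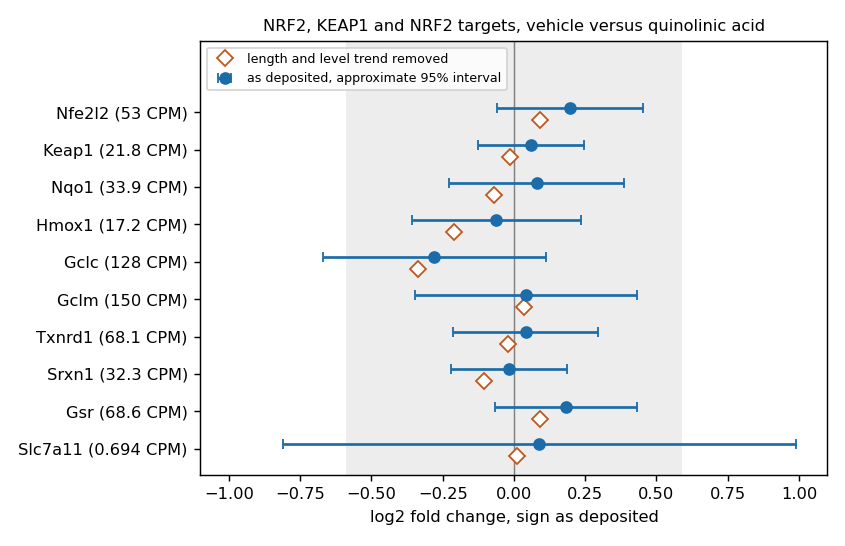
Log2 fold change of the 10 genes as deposited, with approximate 95% intervals (filled circles and bars), and after removal of the trend with transcript length and level (open diamonds, no interval drawn). The grey band marks 1.5-fold in either direction; all 10 intervals include 0, and those of Gclc and Slc7a11 leave the band.

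Nfe2l2 and Keap1, the factor and its sensor, did not pass the test, and both intervals lay within 1.5-fold of no difference. Nfe2l2 (ENSMUSG00000015839.6, chromosome 2, 75675513 to 75704641, mm10) was measured at 53.0 CPM, and its log2 fold change was 0.20 (95% interval from -0.06 to 0.45) per the authors' deposited table. That is a 1.15-fold difference with an interval from 0.958-fold to 1.37-fold. Its p was 0.135, the smallest of the 10 genes, and its adjusted p from the likelihood-ratio test was 0.794 per the authors' deposited table. Of genes of at least 1 CPM, 20.4% lay farther from 0. Keap1 (ENSMUSG00000003308.15, chromosome 9, 21229730 to 21239332) stood at 21.8 CPM and a log2 fold change of 0.06 (-0.13 to 0.25), and its adjusted p was 0.923 per the authors' deposited table. The interval of Keap1, from 0.916-fold to 1.19-fold, was the narrowest of the 10. Exons of Keap1 share 510 bases with the antisense gene Gm16754, and whether the counting used strand was not given in the sources used here.

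Nqo1 and Hmox1 are the targets most often read as markers of NRF2 activity. NQO1 reduces quinones by a pair of electrons at once, and HMOX1 splits heme into biliverdin, iron and carbon monoxide. Nqo1 (ENSMUSG00000003849.8, chromosome 8, 107388225 to 107403206) was measured at 33.9 CPM and a log2 fold change of 0.08 (-0.23 to 0.39), and its adjusted p was 0.946 per the authors' deposited table. On the linear scale its interval ran from 0.854-fold to 1.31-fold. Hmox1 (ENSMUSG00000005413.8, chromosome 8, 75093621 to 75100589) was measured at 17.2 CPM and a log2 fold change of -0.06 (-0.36 to 0.24), and its adjusted p was 0.967 per the authors' deposited table. Its interval ran from 0.780-fold to 1.18-fold, so that for neither gene did it reach a 1.5-fold difference in either direction.

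The genes of glutathione synthesis did not pass the test. GCLC is the catalytic and GCLM the modifier subunit of glutamate-cysteine ligase, the rate-limiting enzyme. Gclc (ENSMUSG00000032350.9, chromosome 9, 77754535 to 77794485) had the largest deviation of the 10 genes, with 128 CPM and a log2 fold change of -0.28 (-0.67 to 0.11), per the authors' deposited table. Its p was 0.161 and its adjusted p 0.794 per the authors' deposited table, and 7.78% of genes of at least 1 CPM had a larger absolute log2 fold change. Gclm (ENSMUSG00000028124.15, chromosome 3, 122245557 to 122270732) stood at 0.04 (-0.35 to 0.43) and 150 CPM, with an adjusted p of 1.00, per the authors' deposited table. The intervals of the subunits overlapped, the sign of Gclm was negative (-0.03) relative to the median of genes of at least 1 CPM, and the difference between them was not tested. Exons of Gclm share 244 bases with the pseudogene Gm6061 on the same strand and 296 with Gm17494 on the opposite one, so part of its count is uncertain.

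Slc7a11 brings in cystine, from which the cysteine of glutathione is made. Its RNA (ENSMUSG00000027737.10, chromosome 3, 50364938 to 50443611) was too scarce for a close estimate. The log2 fold change of Slc7a11 was 0.09 with an interval from -0.81 to 0.99, and its adjusted p was 1.00, per the authors' deposited table. Differences from 0.570-fold to 1.98-fold lie inside that interval, so a change of 1.5-fold in either direction was not detectable at this level.

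The enzymes that reduce oxidized thiols did not pass the test either. Gsr, which regenerates glutathione from its disulfide (ENSMUSG00000031584.16, chromosome 8, 33653238 to 33698163), was measured at 68.6 CPM and a log2 fold change of 0.18 (-0.07 to 0.43) per the authors' deposited table. Its p was 0.148 and its adjusted p 0.794 per the authors' deposited table, and 23.7% of genes of at least 1 CPM lay farther from 0. Txnrd1, the cytosolic selenoenzyme that reduces thioredoxin (ENSMUSG00000020250.10, chromosome 10, 82859179 to 82897712), stood at 0.04 (-0.21 to 0.30) and 68.1 CPM, with an adjusted p of 0.985, per the authors' deposited table. Srxn1, which repairs overoxidized peroxiredoxins (ENSMUSG00000032802.8, chromosome 2, 152105524 to 152111376), stood at -0.02 (-0.22 to 0.19) and 32.3 CPM, with an adjusted p of 1.00, per the authors' deposited table. As deposited, Srxn1 had the smallest deviation of the 10 genes, and 91.0% of genes of at least 1 CPM lay farther from 0.

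The precision of these values was not uniform. The approximate standard error (SE) of the log2 fold change was 0.20 for Gclc, at 128 CPM, and for Gclm, at 150 CPM. Of 1017 genes within 2-fold of the level of Gclc, 80.0% had a smaller SE, and of 798 within 2-fold of the level of Gclm, 76.6% did. Hmox1 (SE 0.15) and Nqo1 (SE 0.16) had larger errors than 81.8% and 82.9% of genes of like level. Keap1 (SE 0.10) and Srxn1 (SE 0.10) were at the other end, with a smaller SE in only 1.48% and 11.0% of such genes. For Nfe2l2, Gsr and Txnrd1, the SE of 0.13 was smaller than that of most genes of their level or close to their median.

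**Figure D2:**
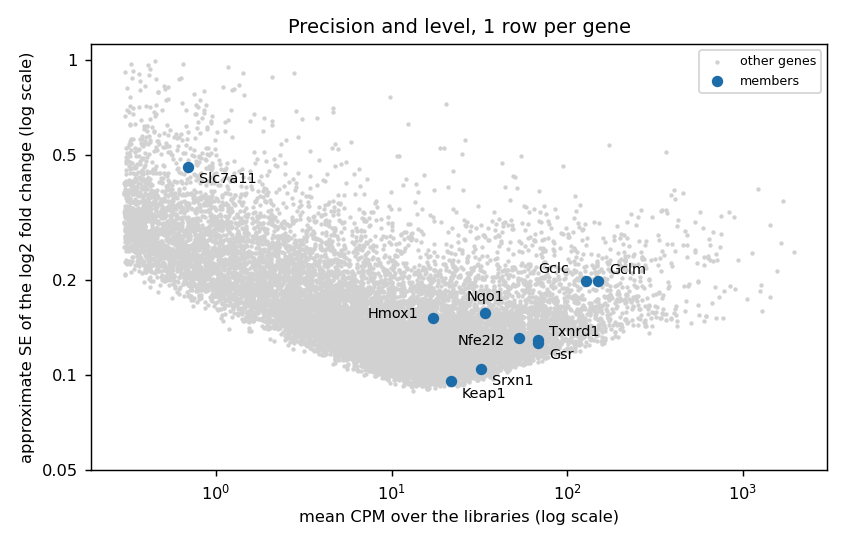
Approximate SE of the log2 fold change against mean CPM, both on log scales, with 1 point per gene from 0.3 to 2000 CPM and SE from 0.05 to 1. Keap1 and Srxn1 lie at the lower edge of the cloud, while Gclc and Gclm, both with an SE of 0.20, lie in its upper part for their level.

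The 10 representing rows are all protein-coding, and 7 members had further rows, 19 in all. No further row had an unadjusted p under 0.05 per the authors' deposited table. Rows of a gene share reads and are not independent measurements. Keap1-201 and Keap1-205, for example, had 21.8 CPM each and the same log2 fold change of 0.06 per the authors' deposited table. The noncoding row Gsr-202 stood at 0.04 at 9.25 CPM, beside 0.18 for the coding row of Gsr, per the authors' deposited table. A sign opposite to that of the representing row occurred in 4 rows. These were Keap1-204 (log2 fold change -0.02, 8.29 CPM), Keap1-203 (-0.05, 0.638 CPM), Gsr-203 (-0.07, 3.02 CPM) and Gclm-205 (0.00 after rounding, 34.8 CPM) per the authors' deposited table.

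In Hmox1 the retained-intron row stood at 20.8% of the level of the coding row. Hmox1-202, the row with the retained intron, had a log2 fold change of -0.21 (-0.54 to 0.12) per the authors' deposited table, with a p of 0.205. The sign was that of the coding row, and the intervals overlapped. For Nfe2l2 the noncoding row Nfe2l2-202 had 0.12 at 3.17 CPM per the authors' deposited table, beside 0.20 for the coding row. The 5 rows of Slc7a11 spanned 0.00 to 1.38, and the value of 1.38 belonged to a row of 0.0807 CPM per the authors' deposited table. Gclc, Nqo1 and Txnrd1 had 1 row each.

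**Figure D3:**
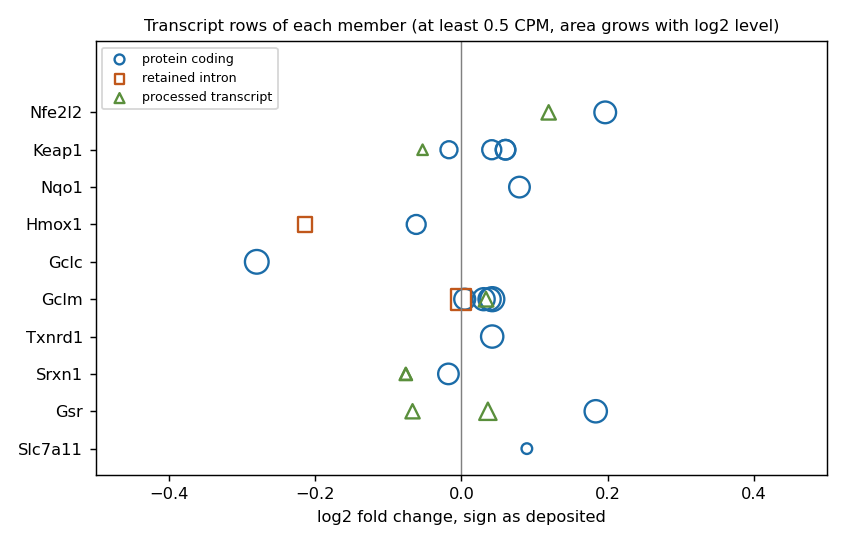
Log2 fold change of every transcript row of the 10 genes with at least 0.5 CPM, by transcript type; symbol area grows with the log2 level. Abundant rows of Keap1 and Gclm lie together near 0, and the retained-intron row of Hmox1 lies at -0.21, left of its coding row at -0.06.

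Across all genes of at least 1 CPM the fold change declined with transcript length (Spearman's rho -0.51 across 13115 genes, which are not independent replicates). A loess curve on length and level put the value at the length and level of each member between 0.01 for Gclm and 0.15 for Nqo1 and Hmox1. Relative to this curve, Gclc stood at -0.34 (-0.73 to 0.05), Hmox1 at -0.21 (-0.51 to 0.09) and Srxn1 at -0.11 (-0.31 to 0.10). All of these lay farther from 0 than as deposited. Nfe2l2 and Gsr each stood at 0.09, about 0.1 closer to 0. Keap1 at -0.01, Nqo1 at -0.07 and Txnrd1 at -0.02 took the opposite sign. All 10 intervals still included 0, and signs were then positive for 4 members and negative for 6, with a median of -0.02.

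**Figure D4:**
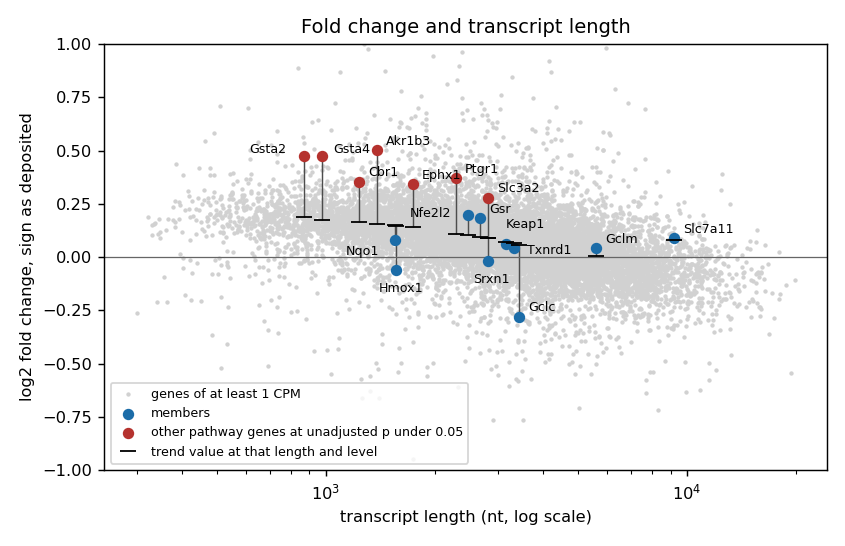
Log2 fold change against transcript length (log scale, 300 to 20000 nt) for genes of at least 1 CPM within 1 of 0; 101 genes outside these limits are not drawn. Black dashes mark the trend at each named gene's length and level, and vertical lines the distance from it; Gclc lies farthest below its dash among the members and Gsta2 and Gsta4 lie well above theirs.

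Other genes of the pathway were described from a list of 72, all measured, of which 65 reached 1 CPM. With edgeR's likelihood-ratio test and an adjusted p under 0.05, the authors' deposited table called 0 of them, and without adjustment 7 had a p under 0.05, all with a positive sign. That is 9.72% of the list, against 3.58% of all genes and 3.2% of genes of at least 1 CPM with a positive sign. A positive sign was seen in 61 of the 72 (84.7%), beside 57.9% of all genes and 71.8% of genes of at least 1 CPM. Their median log2 fold change was 0.14, beside 0.05 over all genes and 0.08 over genes of at least 1 CPM. After removal of the length and level trend their median was 0.02, the signs were 41 positive and 31 negative (13049 and 14827 over all genes), and 1 gene, of positive sign, had an unadjusted p under 0.05, against 2.55% of genes of at least 1 CPM with either sign and 0.755% with a positive one.

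Regulators and partners of NRF2 had a median log2 fold change of 0.08 per the authors' deposited table. An unadjusted p under 0.05 was seen for 0 of 17, against 4.09% of genes of at least 1 CPM. Rbx1, the RING subunit of the CUL3 ligase, stood at 0.17 (-0.10 to 0.44), the small MAF partner Mafg at 0.14 (-0.09 to 0.36) and the KEAP1-binding peptidase Dpp3 at 0.13 (-0.08 to 0.34) per the authors' deposited table. Of the relatives of NRF2, Nfe2l1, which controls proteasome genes, stood at -0.06 (-0.31 to 0.18) and 84.9 CPM per the authors' deposited table. Nfe2l3 stood at 0.40 (-0.39 to 1.18) at 1.16 CPM per the authors' deposited table.

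Among 16 genes of glutathione synthesis and use, 3 had an unadjusted p under 0.05 per the authors' deposited table, all positive, against 3.58% of all genes with a positive sign. The group had 13 positive and 3 negative signs and a median of 0.14, or 7 positive and 9 negative and -0.02 with the trend removed. Alpha-class glutathione transferases conjugate lipid aldehydes and other electrophiles. Of these, Gsta4 at 11.6 CPM showed a log2 fold change of 0.47 (0.18 to 0.76, p = 0.00131) and Gsta2 at 71.3 CPM also one of 0.47 (0.14 to 0.80, p = 0.00497), per the likelihood-ratio test of the authors' deposited table. The other alpha-class genes of the list, given for completeness, were Gsta3 at 35.7 CPM (0.17, -0.19 to 0.54) and Gsta1 at 0.296 CPM (-0.25) per the authors' deposited table. The third gene under 0.05 was Slc3a2, the heavy-chain partner of SLC7A11 and of other amino acid transporters (0.28, 0.03 to 0.53, p = 0.0305, 54.4 CPM) per the authors' deposited table. Adjusted, these p-values were 0.455, 0.632 and 0.794 per the authors' deposited table. Gsta2 and Gsta4 have short transcripts, of 870 and 977 nt, where the trend stood at 0.19 and 0.17. With the trend removed Gsta4 stood at 0.30 (0.01 to 0.59), Gsta2 at 0.28 (-0.05 to 0.61) and Slc3a2 at 0.19 (-0.06 to 0.44). Closely related Gsta genes can share reads, so the split between them is uncertain.

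Detoxification and export genes held the other 4 with an unadjusted p under 0.05 per the authors' deposited table, of 19 listed, against 3.58% of all genes with a positive sign. The group had 16 positive and 3 negative signs and a median of 0.18, or 11 positive and 8 negative and 0.07 with the trend removed. The negative ones, singled out after their values were seen, were the exporters Abcc1 (-0.12, -0.37 to 0.14), Abcc2 (-0.19, -0.57 to 0.19) and Abcc3 (-0.10, -0.59 to 0.40) per the authors' deposited table. The remaining Abcc exporter of the list, Abcc4, was positive (0.33, -0.001 to 0.66, 18.2 CPM) per the authors' deposited table. Its unadjusted p from the likelihood-ratio test was 0.0510. The aldose reductase gene Akr1b3 had a log2 fold change of 0.50 (0.13 to 0.87, p = 0.00771), the epoxide hydrolase gene Ephx1 one of 0.34 (0.09 to 0.60, p = 0.00795) and the reductase gene Ptgr1 one of 0.37 (0.10 to 0.64, p = 0.00799) per the authors' deposited table. Cbr1, a carbonyl reductase gene named because the count is small, had one of 0.35 (0.06 to 0.65, p = 0.0182) per the authors' deposited table. The adjusted p ranged from 0.685 for Akr1b3 to 0.788 for Cbr1 per the authors' deposited table. After removal of the trend Akr1b3 stood at 0.35, Ephx1 at 0.20, Ptgr1 at 0.26 and Cbr1 at 0.19, and all 4 intervals included 0. Nqo2, the paralog of Nqo1, stood at 0.06 (-0.16 to 0.28) per the authors' deposited table.

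Thioredoxin, NADPH and heme genes held none with an unadjusted p under 0.05 per the authors' deposited table, against 4.09% of genes of at least 1 CPM. The 6 thioredoxin and peroxiredoxin genes were all positive (71.8% of genes of at least 1 CPM were) with a median of 0.20, among them the mitochondrial reductase Txnrd2 (0.20, -0.02 to 0.42), the peroxiredoxin Prdx6 (0.22, -0.08 to 0.51) and the thioredoxin inhibitor Txnip (0.23, -0.11 to 0.57) per the authors' deposited table. Txnrd3 stood at 0.06 (-0.15 to 0.26) per the authors' deposited table. The 6 NADPH-supplying enzymes had a median of 0.10, with the pentose phosphate pathway genes Tkt at 0.23 (-0.05 to 0.50), Taldo1 at 0.15 (-0.13 to 0.43) and Pgd at 0.12 (-0.12 to 0.35) per the authors' deposited table. G6pdx, whose product makes the first NADPH of that pathway, stood outside the naming rule and had -0.01 (-0.25 to 0.24) per the authors' deposited table. The 8 heme and iron genes were all positive too, with a median of 0.17. Among them were biliverdin reductase B, Blvrb (0.25, -0.02 to 0.52), the heme transporter Slc48a1 (0.19, -0.08 to 0.45) and ferritin light chain Ftl1 (0.21, -0.13 to 0.54) per the authors' deposited table. Hmox2, the constitutive heme oxygenase, stood at 0.14 (-0.10 to 0.38) per the authors' deposited table. With the trend removed, the medians of these 3 groups were 0.06, -0.01 and 0.03, and 5 of the 6 thioredoxin and peroxiredoxin genes, 3 of the 6 NADPH genes and 6 of the 8 heme and iron genes were positive.

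**Figure D5:**
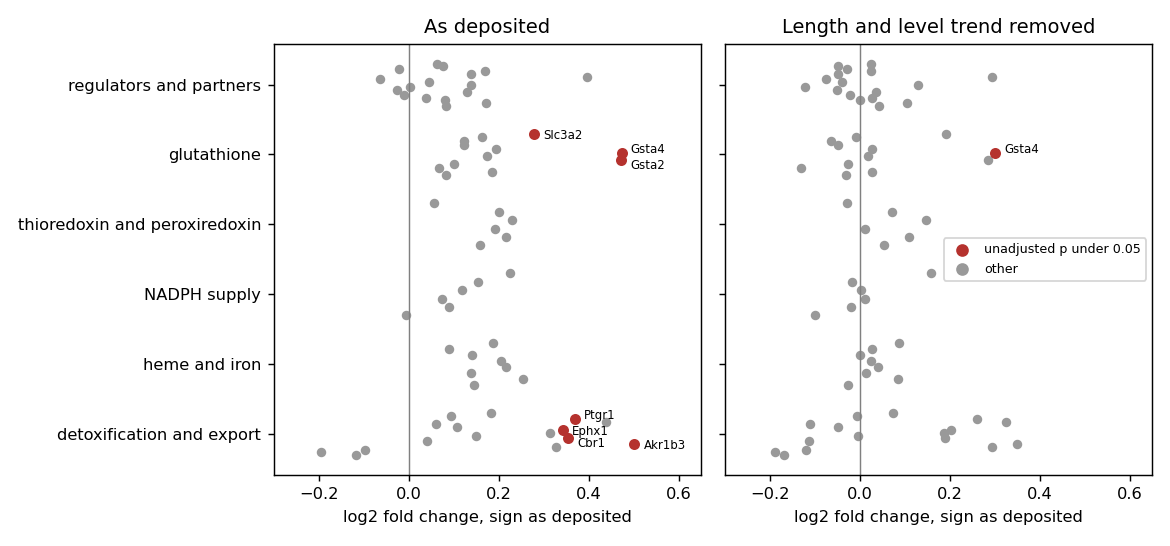
Log2 fold change of the 65 other pathway genes of at least 1 CPM by role, as deposited (left) and with the length and level trend removed (right); red points have an unadjusted p under 0.05. On the left 7 genes are red, all positive; on the right only Gsta4 is.

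Levels of kidney markers differed widely per the authors' deposited table. The proximal tubule phosphate transporter Slc34a1 stood at 1430 CPM and uromodulin Umod at 1274 CPM. The podocyte markers Nphs1 and Wt1 stood at 6.10 and 2.90 CPM. Bulk RNA cannot separate fewer cells of a type from less RNA per cell. The 5 macrophage markers, relevant because macrophages express Hmox1, stood at 0.01 to 0.21, and with the trend removed 2 were positive and 3 negative. The 3 erythroid markers stood at 0.15 to 0.33. No marker of these lists had an unadjusted p under 0.05 per the authors' deposited table, against 4.09% of genes of at least 1 CPM. The 5 adipocyte markers had log2 fold changes of 3.15 to 4.61 at 0.0583 to 1.43 CPM. The 5 liver markers ranged from 0.14 (Serpina1a, 26.9 CPM) to 1.98 (Ahsg, 0.335 CPM). An unadjusted p under 0.05 was seen for 5 and 4 of them, against 3.58% of all genes with a positive sign. None of these adipocyte and liver markers passed the likelihood-ratio test at an adjusted p under 0.05 (smallest 0.0748 and 0.533). Their part in the values of the NRF2 pathway was not tested.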

How the data were processed

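Whole-kidney RNA of 5 vehicle and 5 quinolinic acid mice was sequenced under 1 batch label, and samples were grouped by their treatment label. The submitters' processing notes list STAR 2.5.3a, Subread 1.4.6 with featureCounts, FastQC 0.11.2 and edgeR, with build mm10. Strand setting, filters and annotation release are not given in the sources used here. The values are a finished comparison per transcript by edgeR's likelihood-ratio test, per the file headers. The authors deposited log2 fold changes and log2 mean CPM. The likelihood ratio is a score that the authors deposited. The deposited p-value matched its chi-square tail and the deposited adjusted p-value the Benjamini-Hochberg value over all 85107 rows. Library depths are unknown. The labels number the samples within each group. The p-values come from the authors' fit to these samples and set the difference between the groups against the variation which that fit estimated.

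Unversioned transcript identifiers were looked up in GENCODE vM21 (83446 rows found, 98.0%). The SE was the size of the log2 fold change over the root of the likelihood ratio. The trend was a loess fit (span 0.5, degree 2, R 4.3.3) of fold change on log2 length and level over 27876 genes. It was tested on simulated data whose trend was a straight line in log2 length alone. A trend with level was not simulated, so that test does not cover the level part of the curve. The p with the trend removed used the same SE and a normal distribution. Other steps used Python 3.11.15, pandas 2.3.3 and scipy 1.17.1, and figures matplotlib 3.10.9. Members and lists were chosen with earlier results of these data known. All members were named, and in each role group the 3 smallest p-values among genes that reached 1 CPM, any called gene and the paralogs Hmox2, Nqo2, Txnrd2, Txnrd3, Nfe2l1 and Nfe2l3. Motif sequences are from RefSeq. Alternatives were other thresholds, other sets of rows for adjustment, other rows per gene, centring and trend removal.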

Additional observations from a re-analysis of the deposited data

How the results depend on the processing

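None of the 10 members and none of the 72 other pathway genes was called under any of the 6 alternatives tried for these counts: adjusted p thresholds of 0.1 and 0.01, adjustment over 1 row per gene, over genes of at least 1 CPM or over protein-coding transcripts, and removal of the length and level trend. Over all transcripts the count of 12 became 22 at a threshold of 0.1, 3 at 0.01 and 5 among protein-coding transcripts. The remaining alternatives counted genes with 1 row each, of which the deposited adjustment called 6, with 2 among genes of at least 1 CPM. Adjustment over 1 row per gene called 8 genes, adjustment over genes of at least 1 CPM called 2, and trend removal called 7. The 7 other pathway genes with an unadjusted p under 0.05 became 1 with the trend removed, an alternative chosen after seeing the data. The members' median log2 fold change of 0.05 took the opposite sign when centred on expressed genes, those of 1 CPM or more (-0.025), and after trend removal (-0.018). Centring also turned the sign of Keap1 (-0.016), Gclm (-0.035) and Txnrd1 (-0.035), and trend removal that of Keap1 (-0.013), Nqo1 (-0.071) and Txnrd1 (-0.022). The cause was not tested. All 10 kept their sign with the most abundant protein-coding row and with a mean over rows weighted by level, which moved Slc7a11 from 0.09 to 0.23. No paired analysis was possible because values per library were not analysed here, and for the same reason no replicate was left out.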
